A study of Homo sapiens with 24 samples.

Results

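The comparison described here placed the RNA of actively translating polysomes beside the RNA that carried no polysome in untreated cells. It used the control arrays of MRC5, an established line of fibroblasts from normal human fetal lung, and was chosen by its labels alone, as the 3 arrays of the high pool and the 3 arrays of the untranslated pool. These are 6 of the 24 arrays of the series. The cells of both groups received no hydrogen peroxide, and ribosomes were held on their RNAs with cycloheximide before lysis and a sucrose gradient. The untranslated pool joined gradient fractions 1 to 9, with free ribonucleoprotein particles and monosomes, and the high pool joined fractions 15 to 23, with the heaviest polysomes. The low pool (fractions 10 to 14) and total RNA of the same control cells, 3 arrays each, entered the fit and place each transcript in the gradient. The other 12 arrays are the same 4 groups upon oxidative stress and served only in alternatives.

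An mRNA that is being read carries several ribosomes at a time and sinks deep into a sucrose gradient, whereas an RNA without ribosomes stays near the top. Its place therefore reads how often it is started and how many ribosomes its coding sequence can hold, and a short coding sequence has room for few. Fibroblasts are cells of connective tissue that make and secrete collagen and other matrix proteins. Ribosomal protein mRNAs are known for holding part of their copies in reserve off polysomes, through a 5′ terminal oligopyrimidine (TOP) start, which is a C followed by a run of C and T. Noncoding RNAs by definition have no annotated protein product, though many have been seen on ribosomes.

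The array held 44002 custom probes for 22007 long noncoding RNA (lncRNA) transcripts and 17535 catalog probes. The latter are called mRNA probes here, and some of them match noncoding genes. Levels are log2 of the processed signal, a brightness without a fixed unit, so levels were never compared between probes. All differences are log2 signal of the high pool minus that of the untranslated pool after quantile normalization, with a standard error (SE) from the limma fit. A probe was called higher or lower at a Benjamini-Hochberg adjusted p under 0.05. The untranslated arrays showed 14.5 to 21.8% of lncRNA probes and 43.4 to 50.1% of mRNA probes well above background. The high arrays showed 20.9 to 23.5% and 58.4 to 60.7%. The untranslated arrays also varied more among themselves, with an SD of the log2 difference between replicates of 0.65 to 0.79 against 0.28 to 0.43 in the high pool. The methods describe 3 rounds with independent RNA preparations, but the labels name no cultures and do not tie an array to a round, so p-values measure only the spread between these samples. The titles of untranslated replicates 1 and 2 share a number, so these may come from 1 gradient. Each n of 3 and each p-value here counts them as separate. One array outside the comparison, total RNA replicate 1, was the farthest from its group in 237 of the 293 probes whose SE exceeded 1. Without it 43 such probes remained, and results that rest on these probes are given both ways. Of 5 probes for fibroblast markers, 5 passed the filter on dim probes, among them COL1A1 and LUM, well above background on all 6 arrays compared. The filter also passed 3 of 9 epithelial, 1 of 4 endothelial, 1 of 3 leukocyte and 3 of 4 smooth muscle probes. Of these, SFTPC, CDH5 and PTPRC were above background on all 3 high arrays and on 2 of the 3 untranslated arrays. The part of the signals of these other cell types in the results was not tested.

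A probe was tested where all 3 arrays of the high pool, or all 3 of the untranslated pool, read it well above background. Among 9880 mRNA probes tested 5996 were higher in the high pool (60.7%), 2353 lower (23.8%) and 1531 neither, so that 84.5% were called. The median difference was 1.08. Among 8584 lncRNA probes tested the order turned, with 2117 higher (24.7%), 4582 lower (53.4%) and 1885 neither. Here 78.0% were called and the median was -0.72. Of the lncRNA probes tested 1176 were above background on the high arrays alone of the 6. With signal required on all 6 arrays, 686 of 5210 lncRNA probes were higher (13.2%) and 3831 lower (73.5%). Of the mRNA probes tested 1345 likewise passed through the high arrays alone. With signal on all 6 arrays, 4044 of 7241 mRNA probes were higher (55.8%) and 2243 lower (31.0%), with a median of 0.72. Each array pooled many cells, so fewer cells with a transcript on polysomes and fewer copies on polysomes in every cell cannot be told apart. The 3 high values did not overlap the 3 untranslated values for 85.5% of the mRNA probes and 77.1% of the lncRNA probes. Within the 3 slides, each of which held 1 array of either pool, the mRNA median was between 1.01 and 1.13 and the lncRNA median between -0.82 and -0.68. Leaving out total RNA replicate 1 gave 6082 higher and 2386 lower mRNA probes, and 2139 higher and 4662 lower lncRNA probes.

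These calls are relative to the rest of the RNA on each array, and the scale sets where zero lies. Of the called mRNA probes 71.8% were higher, and of the called lncRNA probes 31.6%. With arrays scaled to their 75th percentile the shares were 82.1% and 38.2%, without normalization 95.3% and 77.1%, and with scaling to 3 spike-in probes 97.2% and 85.2%. Quantile normalization of the categories one by one, which sets their medians level, gave 57.7% and 49.9%. The median over all probes tested, 0.23 here, was 0.57, 1.78, 2.16 and 0.17 in turn under these scalings. Among the members of the gene lists described further on, 124 of the 182 probes called lower and 65 of the 442 called higher had the other sign in at least 1 of the 7 scalings. Those named are given with that limit.

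A quantity that does not depend on a shift of the whole array is the gap between the categories, the lncRNA median of an array less its own mRNA median. It was -1.01, -0.84 and -0.87 on the untranslated arrays and -2.36, -2.39 and -2.43 on the high arrays. The groups did not overlap, and the high pool lay 1.49 lower on the log2 scale (-2.39 ± 0.04 against -0.91 ± 0.09, SD, n = 3, two-sided exact permutation p = 0.1, the smallest that 3 against 3 allow). The low pool, at -1.78, -1.85 and -1.76, lay between them, and total RNA, at -1.98, -2.09 and -2.14, between the low and the high pool. Only with the categories normalized one by one did the gap vanish, at 0.02.

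**Figure D1:**
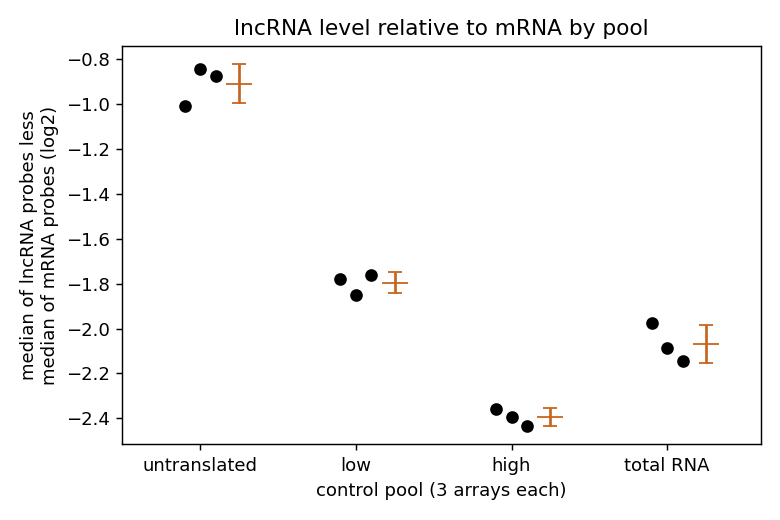
The vertical axis is the gap between the categories on an array, the lncRNA median minus the mRNA median of log2 signal over the probes tested, and the horizontal axis the control pool. Black points are arrays, 3 a pool, and the bars are mean and SD. The untranslated arrays lie between -1.01 and -0.84 and the high arrays between -2.43 and -2.36, an order that normalizing the categories one by one removes.

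**Figure D2:**
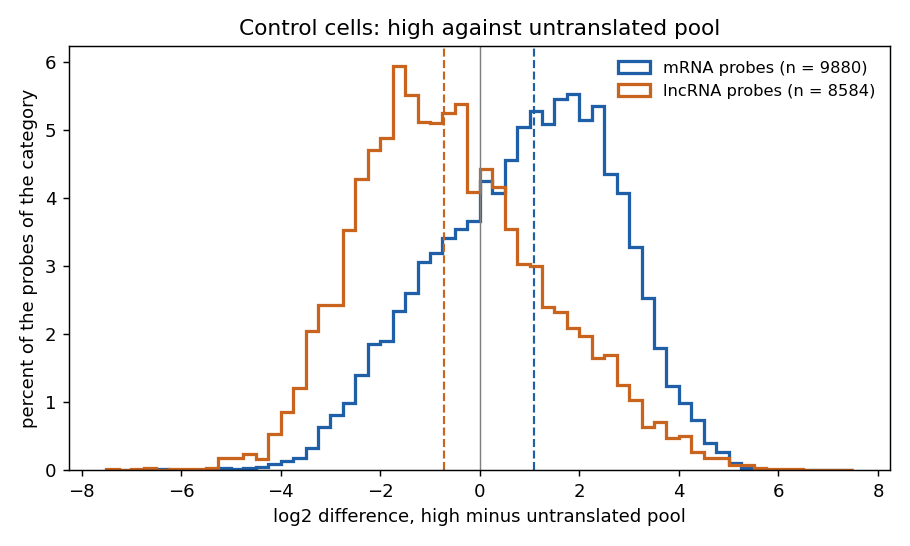
The horizontal axis is the log2 difference of a probe, high minus untranslated, in bins of equal width, and the vertical axis the percent of the probes of its category. Dashed lines are the medians, 1.08 for mRNA and -0.72 for lncRNA probes, and the 2 distributions overlap widely. Scaling to the spike-in probes moves them to 3.23 and 1.23.

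The same contrast ran inside the catalog probes. The 8195 probes with a coding RefSeq accession gave 5457 higher and 1605 lower, with a median of 1.32. The 426 probes that list only a noncoding accession gave 25.1% higher and 53.1% lower, with a median of -0.69, close to that of the custom lncRNA probes. Within these 426 catalog probes, 204 probes of genes that RefSeq classes as lncRNA had a median of -0.90 with 43 higher and 121 lower. The 133 probes of transcribed pseudogenes had a median of -0.11 with 46 higher and 55 lower. Catalog probes with no RefSeq accession, 1127 in number, were split into 35.0% higher and 40.1% lower, with a median of -0.05.

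The 3 gradient pools together show where transcripts peak. The highest of the 3 means was the high one for 61.6% of the coding probes, the low one for 24.8% and the untranslated one for 13.6%. For lncRNA probes the same shares were 27.1%, 22.9% and 50.0%. The filter on dim probes can be passed through 1 of the compared pools alone. Among mRNA probes 1345 were well above background on all 3 high arrays and on no untranslated array, against 33 the other way round, and 7241 were so on all 6 arrays. Among lncRNA probes these numbers were 1176, 208 and 5210.

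The mRNAs with the most positive differences were taken as 12 coding probes among those well above background on all 6 arrays. C1GALT1C1, a chaperone that a glycosyltransferase of the Golgi needs to fold (probe at chrX:119760117-119760176, GRCh37), measured 7.42, 6.91 and 6.08 on the untranslated arrays and 11.88, 11.71 and 11.45 on the high arrays. Its difference was 4.88 (SE 0.31, limma adjusted p = 1.08e-07), a 29.3-fold higher signal in the high pool. RRAGA, a GTPase that recruits mTORC1 to the lysosome, measured 12.13, 12.14 and 11.97 against 16.87, 16.55 and 16.34, with a difference of 4.50 (SE 0.15, limma adjusted p = 1.75e-09). For both, the 3 low-pool values lay between the groups without overlap. MAGED2 and MAGED1, related members of the MAGE family, differed by 4.73 and 4.31, GSDME, a pore-forming gasdermin, by 4.64, and OAT, the mitochondrial ornithine aminotransferase, by 4.50. The membrane and secretory pathway gave RCN3 (4.33), a calcium-binding protein of the endoplasmic reticulum, the tetraspanin CD9 (4.31) and PSAP (4.29), the precursor of the saposins of the lysosome. CAP1, a regulator of actin filaments, differed by 4.35, SNTB2, an adaptor of the dystrophin complex, by 4.43, and TNRC18 by 4.46.

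The 12 most negative coding probes were chosen by the same rule. CIMAP1D, listed on the array as ODF3L2 and named for a sperm tail protein (chr19:463367-463426, GRCh37), measured 13.78, 14.38 and 14.41 on the untranslated arrays and 8.13, 8.01 and 7.53 on the high arrays. Its difference of -6.30 (SE 0.21, limma adjusted p = 1.84e-09) is 78.8-fold. Its total RNA values of 11.03, 10.87 and 10.55 lay between the pools. KRTAP3-3, a keratin-associated protein of hair whose probe also matches KRTAP3-2, differed by -5.13, MROH7 by -4.67 and the gut peptide GUCA2B by -4.48. Whether the signals of any of the 12 come from the named genes or from other transcripts that hold the same bases was not tested. RPS29, a protein of the small ribosomal subunit, measured 12.71, 12.41 and 12.49 against 8.20, 8.09 and 8.02 (difference -4.43, SE 0.12, limma adjusted p = 7.81e-10). COMMD6 differed by -4.08, LSM10, a part of the U7 particle that trims histone mRNAs, by -4.02, and H2BC11, a histone H2B, by -4.22. COA3, an assembly factor of cytochrome c oxidase, differed by -3.78, the kinase inhibitor PKIG by -3.87, CCNB1IP1 by -3.80 and the integrin ITGAE by -3.97. For all 12 the 3 untranslated values lay above the 3 high values, as the rule of choice required. Of all mRNA probes tested 85.5% had no overlap in one direction or the other.

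**Figure D3:**
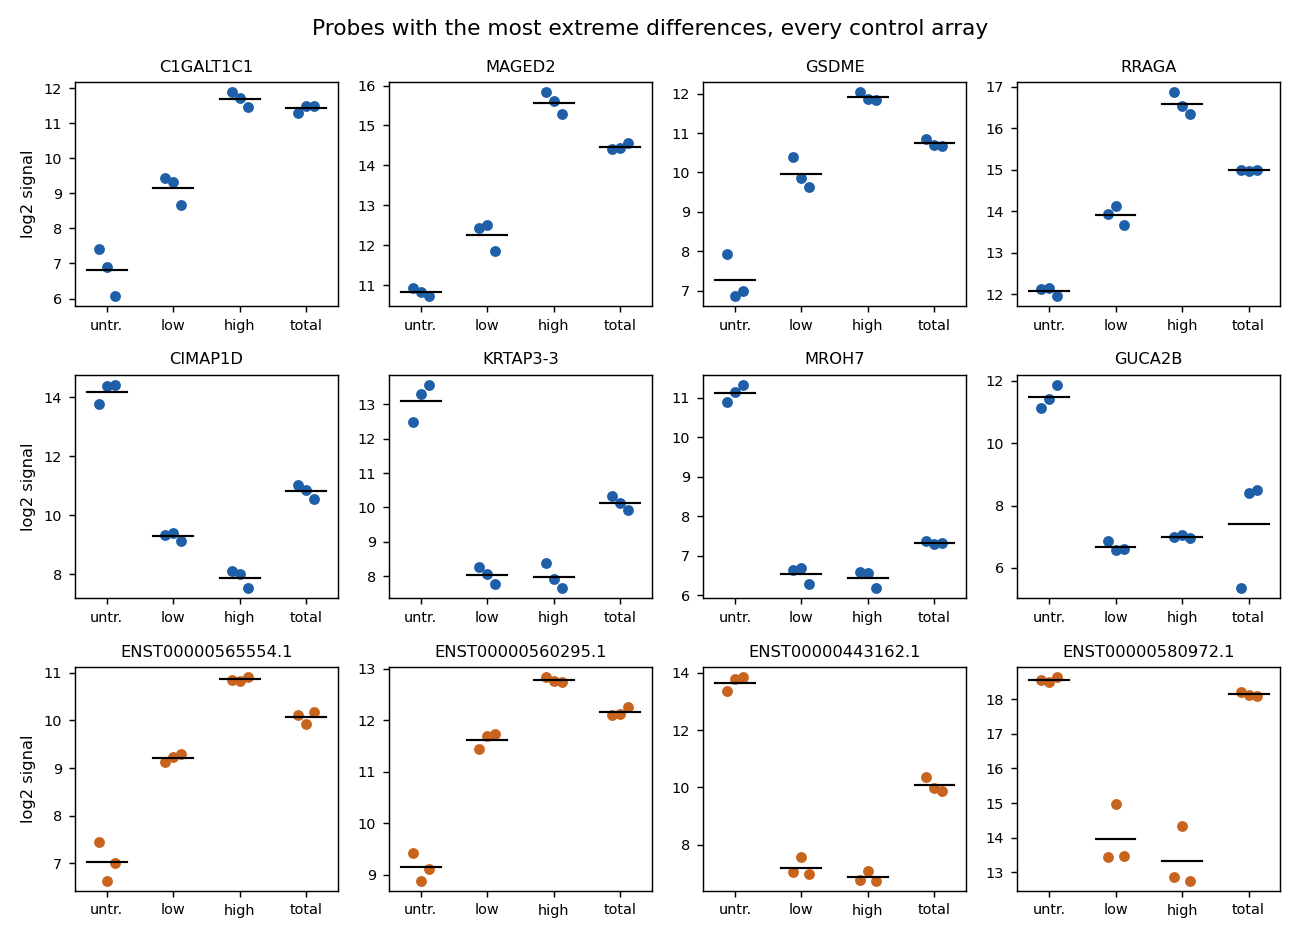
Each panel is 1 probe with its own vertical axis, the quantile-normalized log2 signal, and the horizontal axis is the control pool (untr., untranslated). Points are the 3 arrays of a group and black lines their means, blue for mRNA and orange for lncRNA probes. C1GALT1C1, MAGED2, GSDME, RRAGA, ENST00000565554.1 and ENST00000560295.1 have high values above the untranslated ones. The other 6 have them under these, as with CIMAP1D (13.78 to 14.41 untranslated against 7.53 to 8.13 high).

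GAPDH and PGK1, enzymes of glycolysis, have control spots outside the tested categories, each measured on 10 spots per array. The GAPDH probes differed by 2.54 and 3.26 and the PGK1 probes by 4.91 and 5.10, higher on 3 of 3 high arrays (two-sided exact permutation p = 0.1, the smallest possible). Some genes were above background on all 3 high arrays and on no untranslated array, so that only a bound can be given between these pools. Such bounds set the mean of the bright pool against the lowest signal counted as above background. ZBTB20, a transcriptional repressor with zinc fingers, was not well above background on any untranslated array and was at least 17.5-fold higher in the high pool (means 3.25 and 10.27). Such probes were tested only because they are bright in 1 pool, so no p is given for them. The forkhead factor FOXK1 was at least 24.3-fold and PLEKHM3 at least 19.7-fold higher. All 3 genes were above background on all 3 low-pool and all 3 total RNA arrays. In the other direction SNORA74B and SCARNA17, small RNAs that guide modification of other RNAs in the nucleus, were at least 27.2-fold and 15.2-fold lower in the high pool, and SPEF2 at least 14.9-fold lower.

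Secreted proteins such as collagens are made on ribosomes at the endoplasmic reticulum. Of 21 probes for collagens and matrix proteins 20 were higher and 0 lower, with a median of 2.30 against 1.08 over all mRNA probes, of which 60.7% were higher. COL1A1, the main chain of type I collagen, measured 15.06, 14.92 and 14.95 on the untranslated arrays and 17.48, 17.39 and 17.10 on the high arrays (2.35, SE 0.12, limma adjusted p = 1.63e-08). The small proteoglycan LUM rose by 3.57, whereas the matricellular THBS1 gave 0.38, which turned negative with the categories normalized one by one. The remaining probe, COL6A2, had a difference of 2.98 with an SE of 2.25, and 3.00 with an SE of 0.19 and a call without total RNA replicate 1. The probes of 1 gene can differ in size, as for COL6A3 with 1.50 and 3.90.

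The endoplasmic reticulum list, 17 probes, had 13 higher (76.5%) and 3 lower (17.6%) with a median of 2.51. Over all mRNA probes 60.7% were higher and 23.8% lower. P4HB, a disulfide isomerase that is also a subunit of the collagen prolyl hydroxylase, gave 3.13 and the chaperone CALR 2.97. The translocation channel subunit SEC61A1 gave 3.50. The signal recognition particle was divided, with its GTPase subunit SRP54 at 4.23 and its small subunit SRP9 at -1.56, -1.47 and -1.35 on 3 probes. SSR4 gave 0.02. With 75th percentile, no or spike-in scaling 0 probes of the list were called lower, and the SRP9 probes turned positive with the latter 2.

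Proteasome, glycolysis, cytoskeleton, cell cycle and tRNA charging lists had 0 probes called lower. Over all mRNA probes 23.8% were lower and 60.7% higher. All 19 proteasome probes were higher (median 2.49), from PSMC5 at 0.91 to PSMC2 at 3.41, both ATPases of the regulatory particle. All 7 glycolysis probes were higher (median 3.18), with ENO1, the enolase of most tissues, at 4.16 and TPI1, triosephosphate isomerase, at 1.79. Of 25 cytoskeleton probes 24 were higher (median 2.08), with the tubulins TUBB4B at 4.23 and TUBA1A at 3.74, and the small actin-binding CFL1 at 0.96 and 0.99 and PFN1 at 0.45, negative with the categories normalized one by one. Of 21 cell cycle probes 20 were higher (median 2.58), with the ribonucleotide reductase subunit RRM2 at 4.26 and CCND2, a D-type cyclin, at 3.85. The exception, PCNA at 2.89, had an SE of 1.87 in the fit and was called without total RNA replicate 1 (SE 0.26). Of 14 probes for aminoacyl-tRNA synthetases, which load amino acids onto tRNAs, 12 were higher (median 2.28) and 14 without that array. These 5 lists had positive medians under all 7 scalings and stood 0.63 or more above the median of all mRNA probes in each. The high pool held the highest of the 3 gradient means for 16 of the 25 cytoskeleton probes and for every probe of the other 4 lists.

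Of 22 probes for initiation and elongation factors 13 were higher (59.1%) and 3 lower (13.6%), with a median of 0.88, against 60.7%, 23.8% and 1.08 over all mRNA probes. The list as a whole thus lay near the background. The helicases EIF4A3 (3.95) and EIF4A1 (2.58) and the scaffold EIF4G1 (2.40) were on the high side, the cap-binding EIF4E gave -1.83 and -1.81 on its 2 probes, and EIF1B gave -1.80, all 3 positive without normalization and with spike-in scaling. EIF4E measured 11.33, 11.09 and 10.56 on the untranslated arrays and 8.88, 9.24 and 9.38 on the high arrays with the first of these probes, so the groups did not overlap. Its low-pool values of 10.60, 10.69 and 11.06 were within the range of the untranslated pool.

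Ribosomal protein mRNAs stood on the untranslated side of the mRNA distribution. Of 71 probes tested, for 51 genes, 16 were higher and 43 lower, where 60.7% and 23.8% of all mRNA probes were. The median of -0.68 turned to 0.04 without normalization and 0.42 with spike-in scaling (42 higher, 21 lower). Relative to the median of all mRNA probes it was -1.76, and between -2.81 and -1.38 over the 7 scalings. Within the slides the median was -0.82, -0.63 and -0.62. Members differed from each other by far more than their errors. RPL39, among the smallest ribosomal proteins, measured 15.39, 15.40 and 15.50 on the untranslated arrays and 12.11, 12.14 and 12.11 on the high arrays with 1 probe (-3.31, SE 0.08, limma adjusted p = 6.54e-10) and -2.25 with the other. RPL23A gave -3.44, RPS21 -1.97, RPS27 -1.71 and RPS12 -1.68. RPL3, the largest of the group together with RPL4, measured 16.57, 16.68 and 16.80 against 18.16, 17.99 and 17.99 (1.36, SE 0.09, limma adjusted p = 1.84e-07). RPL14 gave 1.29, RPL5 0.92 and 1.27, and RPL4 1.00. The 5 genes just named with a negative value kept their sign in all 7 scalings. In the gradient 31 probes had their highest mean untranslated, 30 low and 10 high. Ribosomal protein genes have many pseudogenes, and some of these probes match more than 1 gene (those of RPL21, RPL13A and RPSA among them), so a share of their signal may come from such copies.

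The list of other TOP mRNAs holds translation factors and ribosome assembly proteins, among others. Of 21 probes 13 were higher (61.9%, against 60.7% of all mRNA probes) and 3 lower (14.3%, against 23.8%), with a median of 1.12. Relative to the median of all mRNA probes it was 0.04, between -0.72 (75th percentile, no and spike-in scaling) and 0.40 over the 7 scalings, and 0.36, -0.55 and 0.20 within the slides, so the list has no settled side of that median. NPM1, a chaperone of ribosome assembly, gave 2.00 and 2.35, and 2.55 on another probe that was called only without total RNA replicate 1. IMPDH2, an enzyme of guanine nucleotide synthesis, gave 2.87, and EEF2, the translocation factor, 1.12. EIF4B (-0.62 and -0.50) and 1 of the 2 probes of NOP53 (-1.07) were lower, and turned positive with 75th percentile, no and spike-in scaling. To compare members on either side, their annotated transcription starts are given from RefSeq (GRCh38.p14), as 10 bases before and 20 bases from the start. Capitals mark the run of pyrimidines from the first transcribed base.
RPL39 (chrX:119791611-119791640, minus strand): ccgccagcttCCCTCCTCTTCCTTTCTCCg
RPS21 (chr20:62387093-62387122, plus strand): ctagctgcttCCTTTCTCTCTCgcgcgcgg
RPS12 (chr6:132814559-132814588, plus strand): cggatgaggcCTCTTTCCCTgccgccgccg
RPL14 (chr3:40457329-40457358, plus strand): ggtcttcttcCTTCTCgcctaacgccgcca
NPM1 (chr5:171387839-171387868, plus strand): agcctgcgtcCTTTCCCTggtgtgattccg
EEF2 (chr19:3985444-3985473, minus strand): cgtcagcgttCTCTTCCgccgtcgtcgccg
ZFAS1 (chr20:49278632-49278661, plus strand): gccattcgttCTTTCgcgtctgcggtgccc
SNHG12 (chr1:28581854-28581883, minus strand): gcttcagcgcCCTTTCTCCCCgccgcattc
RPS29 (chr14:49598691-49598720, minus strand): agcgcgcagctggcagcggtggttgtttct

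A C followed by at least 4 pyrimidines at the annotated start, read on the strand of the gene, was found in 43 of 64 ribosomal protein promoters, 12 of 15 of the other TOP genes and 4.07% of all 35116 promoters. Only 4 of 16 promoters had it in the list of small nucleolar RNA hosts and related noncoding RNAs described further on, so ZFAS1 and SNHG12 do not stand for that list. The starts of SNHG1 and RPL3, with runs of 3 and 4 pyrimidines, are not shown and do not meet this rule. Those of RPS27, EIF4B and EEF1A1, with runs of 7, 5 and 7, meet it and are not shown either. Coding probes of genes with that start, 350 in number, were higher in 59.4% and lower in 27.1%, with a median of 0.94. Those of genes without it, 6079 in number, were higher in 68.4% and lower in 18.2%, with a median of 1.38. With ribosomal proteins left out the median of the former was 1.18. Within the ribosomal proteins it was -0.93 for 33 probes with the start and -0.09 for 15 without. RPS29, the most negative of them, has no such run at the annotated start read. For named genes and probe counts only the first listed start of a gene was read. Whether the RPS29 mRNA of these cells begins at that start was not tested.

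Mitochondrial proteins were split by list and by member. Over all mRNA probes 60.7% were higher and 23.8% lower, the background for their counts. Of 48 probes for nuclear-encoded subunits of the respiratory chain and ATP synthase 19 were higher and 24 lower, with a median of -0.32 that was positive under 75th percentile (0.47), no (1.68) and spike-in scaling (2.06). On the high side was ATP5F1B, the catalytic subunit of the ATP synthase, with 11.80, 11.93 and 11.99 on the untranslated and 16.47, 16.14 and 15.86 on the high arrays (4.25, SE 0.15, limma adjusted p = 2.19e-09). ATP5F1A of the same enzyme gave 2.76. NDUFS1, the largest subunit of complex I, gave 2.71. Other subunits were on the other side, ATP5MF of the ATP synthase with -3.08 and -3.04, UQCR10 of complex III with -2.84 and -2.32 and COX6B1 of complex IV with -1.84, the last positive with spike-in scaling. The list peaked in the low pool for 31 of 48 probes, against 24.8% of coding probes. Mitochondrial ribosomal proteins had 19 higher and 15 lower of 41, with a median of 0.17 that was -0.32 with the categories normalized one by one, and peaked in the low pool for 23. Its members ran from MRPS17 at -2.29, positive with spike-in scaling, to MRPL19 at 4.40, above background on 1 untranslated array. The transcripts that mitochondria make and translate themselves were highest in the untranslated pool on 3 of 3 probes. ND5, a subunit of complex I, measured 13.76, 14.26 and 14.55 against 10.09, 10.39 and 10.16 (-3.97, SE 0.19, limma adjusted p = 1.53e-08), and ND4L differed by -3.15. ATP8, at -3.91 with an SE of 2.42, was called only without total RNA replicate 1 (-3.93, SE 0.23, limma adjusted p = 1.20e-07). Their medians were negative under all 7 scalings.

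**Figure D4:**
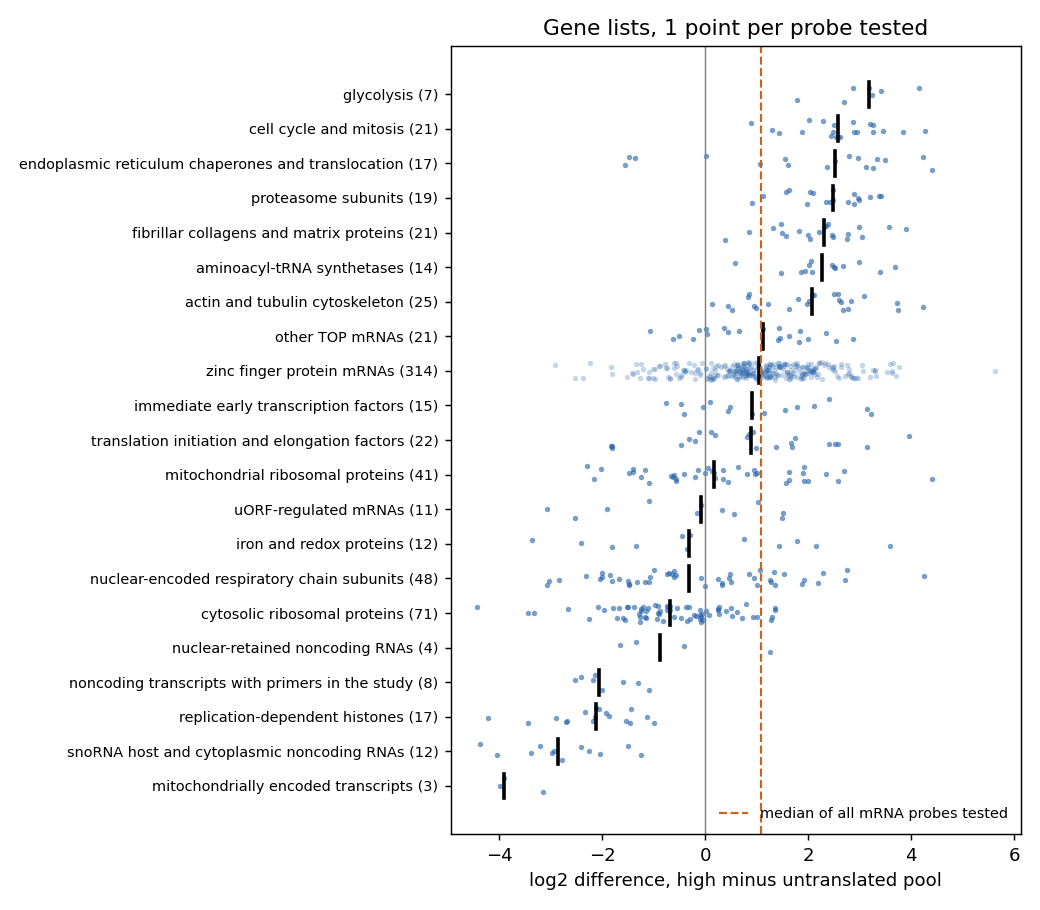
The horizontal axis is the log2 difference, high minus untranslated, and each row a gene list with its number of probes tested. Points are probes, black bars the medians of the lists and the dashed line the median of all mRNA probes, 1.08. The medians run from 3.18 (glycolysis) to -3.91 (mitochondrially encoded). Those of ribosomal proteins, histones, iron and redox proteins and the study's noncoding transcripts turn positive with spike-in scaling, as do those of the respiratory chain, uORF-regulated mRNAs and nuclear-retained RNAs, and that of mitochondrial ribosomal proteins turns negative with the categories normalized one by one.

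Replication-dependent histone mRNAs, which normally end in a stem-loop in place of a poly(A) tail, had 16 of 17 probes lower and 0 higher, with a median of -2.12 that became -0.14 without normalization and 0.24 with spike-in scaling. Relative to all mRNA probes it was between -3.20 and -2.80 in the 7 scalings. Of all mRNA probes 23.8% were lower. Labelling was primed with oligo-dT, and its part in this result was not tested. H2BC11 measured 13.11, 13.23 and 12.67 on the untranslated and 8.98, 8.70 and 8.66 on the high arrays, and H2BC14 differed by -3.43. The linker histone H1-4 gave -2.89. H2AC6 at -2.13 was called only without total RNA replicate 1, and turned positive without normalization and with spike-in scaling. Genes of this family resemble each other closely, so a probe may read several of them.

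Messages with regulated starts were divided. Over all mRNA probes 60.7% were higher and 23.8% lower, the background for the counts that follow. The uORF list, whose members carry short reading frames ahead of the main one, had 4 higher and 4 lower of 11 (median -0.08, positive under 75th percentile, no and spike-in scaling). ATF4, the transcription factor of the integrated stress response, measured 17.08, 16.88 and 16.93 against 15.95, 15.81 and 15.87 (-1.09, SE 0.10, limma adjusted p = 2.07e-06). SAT1, which acetylates polyamines, gave -2.53 (0.03 with spike-in scaling), while PPP1R15B, a subunit of the phosphatase that acts on the initiation factor eIF2, gave 1.51. Of 12 iron and redox probes 5 were higher and 7 lower (median -0.32). The metallothioneins MT1X (-3.36) and MT1E (-2.42) and the glutathione peroxidase GPX1 (-1.80 and -1.35) were lower, the mitochondrial PRDX3 (3.58) and SOD2 (2.16) higher, and the 3 probes of ferritin heavy chain FTH1 gave -0.46, -0.35 and -0.29, and positive values with spike-in scaling. Immediate early genes had 8 higher (53.3%) and 1 lower of 15, with a median of 0.91 against 1.08 for all mRNA probes. IER5 was at 3.23 and JUNB at 3.14. IER3 at -0.76 turned positive without normalization and with spike-in scaling, and EGR1 at -0.41 (SE 0.40) was not called. Of 314 zinc finger probes 224 were higher (71.3%) and 38 lower (12.1%), with a median of 1.05 against 1.08 for all mRNA probes.

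Host genes of small nucleolar RNAs (snoRNAs) stood on the untranslated side. All 12 probes of these and related noncoding RNAs were lower, where 53.1% of catalog probes with only a noncoding accession were, with a median of -2.86. SNHG6 gave -4.37. GAS5, a host of small nucleolar RNAs, measured 16.87, 16.82 and 16.74 on the untranslated and 14.07, 14.20 and 13.84 on the high arrays (-2.77, SE 0.10, limma adjusted p = 3.04e-09), with low-pool values of 16.12, 16.14 and 16.19 between them. ZFAS1 gave -3.38 and SNHG12, whose TOP start stands above, -2.41 (0.21 with spike-in scaling), with its low-pool mean the highest of the 3. RMRP, the RNA of a processing ribonuclease, gave -4.04. It measured 8.17, 8.05 and 7.45 in the low pool and 8.51, 8.28 and 8.48 in the high pool against 12.32, 12.52 and 12.53 in the untranslated pool. The list's median was negative under all 7 scalings, though with spike-in scaling 6 probes were lower and 3 higher. Among nuclear-retained RNAs MEG3 gave -1.65 and -1.35, and -0.41 on a probe that was not called, all positive without normalization and with spike-in scaling. TUG1 gave 1.26, with its highest mean in the low pool. Noncoding transcripts for which the study had designed primers were lower on 8 of 8 probes (53.1% of catalog probes with only a noncoding accession were), with a median of -2.06 that turned positive without normalization and with spike-in scaling (0.42). KMT2E-AS1 (-2.52) was negative in all 7 scalings, LINC01089 (-2.18) not with spike-in scaling, and MIR23AHG (-2.13) neither there nor without normalization. The study chose them on these cells, so their direction is not independent evidence.

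Custom lncRNA probes come in pairs for a transcript, which gives a check within the array. For 3510 transcripts both probes were tested and held different sequences, and across these transcripts the 2 differences correlated with a Pearson r of 0.96, as a description, since the 2 probes read the same labelled sample and often neighbouring bases. Their median absolute disagreement was 0.18. Both probes were called for 2593 transcripts, with 769 higher on both, 1802 lower on both and 22 with opposite calls. Catalog probes of 1 coding gene were farther apart. Over 932 genes with 2 or more probes tested the median range was 0.72, and 77 genes (8.26%) had 1 probe higher and another lower.

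**Figure D5:**
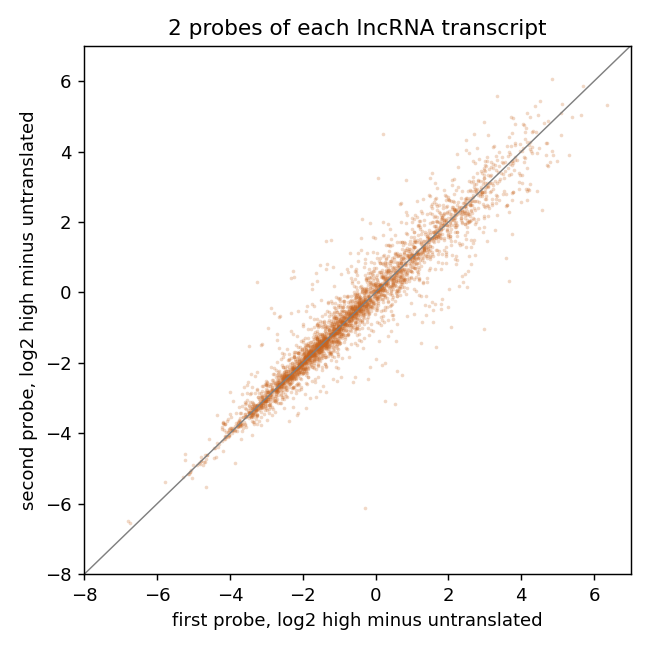
Each point is 1 of 3510 lncRNA transcripts, with the log2 difference (high minus untranslated) of its first probe on the horizontal and of its second on the vertical axis. The grey line marks equality. Most points lie along it (Pearson r 0.96), on both sides of zero.

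The lncRNA transcripts at the extremes are named by their Ensembl identifiers, since the design gives them neither a gene name nor a position. The most negative were ENST00000443162.1 (-6.79 and -6.50 on its 2 probes) and ENST00000450016.1 (-6.54 and -6.75), which share probe bases and cannot be counted as separate. The first measured 13.36, 13.78 and 13.83 on the untranslated arrays, 6.77, 7.09 and 6.74 on the high arrays and 7.05, 7.56 and 6.97 in the low pool. In total RNA it stood at 10.37, 9.98 and 9.86. The low and high values overlapped, and both lay far under the untranslated ones. ENST00000580972.1 had a similar shape over the gradient pools at -5.24 and -5.30 (18.55, 18.50 and 18.63 against 12.87, 14.33 and 12.75), with the replicate 2 value the highest in the low and in the high pool. Its total RNA values of 18.22, 18.13 and 18.11 lay near the untranslated ones, unlike those of ENST00000443162.1. ENST00000587298.1, whose probes share bases with 6 other transcripts on the array, gave -5.05 and -5.26 and stepped down from 14.24, 14.12 and 14.08 over 11.16, 11.24 and 11.22 in the low pool to 8.98, 9.13 and 9.18.

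On the other side ENST00000565554.1 gave 3.83 and 3.85, with 7.44, 6.64 and 7.01 on the untranslated and 10.86, 10.83 and 10.90 on the high arrays, and 9.12, 9.22 and 9.29 in the low pool. ENST00000560295.1 gave 3.63 and 3.87 and ENST00000582262.1 3.70 and 3.66. ENST00000515055.1, at 3.74 and 3.73, shares bases with the coding transcript NM_012316 on both of its probes, so this signal cannot be assigned to the noncoding transcript. Among transcripts above background on all untranslated arrays and no high array ENST00000575126.1 was at least 84.8-fold lower in the high pool, ENST00000517965.1 at least 62.2-fold and ENST00000411804.1 at least 35.3-fold. The converse bounds were 27.2-fold higher for ENST00000570269.1, 23.5-fold for ENST00000421806.1 and 17.9-fold for ENST00000582866.1. The 52 results on the most positive and most negative probes and on bounds kept their direction and their call in every alternative that tested them. Their choice by extreme differences, or by signal in the bright pool alone, made this likely, so it is not independent evidence.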

How the data were processed

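RNA of control MRC5 cells was measured on single-color (Cy3) arrays with a design on GRCh37. The authors deposited, per the file headers, the spot intensity from Feature Extraction 10.7.3.1, with background subtracted in the processed signal, marks for outliers and for spots well above background, and a table of log2 normalized values, used as an alternative. Aside from these, no column was used. Differences were computed from log2 processed signal of the 12 control arrays, quantile-normalized over lncRNA and mRNA probes together, since separate normalization, as in the methods, sets the categories level. Control spots and 178 probes with an outlier mark were left out. The fit was a linear model with a mean for each of the 4 groups (limma 3.58.1, R 4.3.3, 8 residual degrees of freedom), and p-values were adjusted over 18464 probes. Arrays were checked for saturated spots, and no probe tested was saturated. Their number, 3 a group, limits the precision. The fit was tested on simulated data.

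The members and lists were chosen with earlier results of these data known. The named probes are the 12 most positive and 12 most negative coding probes and 4 lncRNA transcripts each way, called, above background on all 6 arrays and without overlap, up to 3 bounds each way and category, and list members at the extremes or of highest signal. Gene names come from the design, updated by RefSeq accession. A description by protein length was planned but not computed. ACTB, FOS, NEAT1 and MALAT1 were not among the catalog probes tested. The titles of untranslated replicates 1 and 2 carry the same number, and whether they come from 1 gradient is not known. These arrays differed from each other more than either did from replicate 3 (SD 0.79 against 0.75 and 0.65, log2), which cannot settle it. Both were kept. With the 2 averaged, 6057 mRNA probes were higher and 2334 lower, 2233 lncRNA probes higher and 4629 lower, and the gap was -1.50.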

Additional observations from a re-analysis of the deposited data

How the results depend on the processing

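Deviations of equal replicate numbers correlated at -0.30, -0.09 and 0.07, and those of arrays on the same slide at 0.36, -0.06 and 0.23. With 3 arrays a group these values cannot settle whether samples were paired. With the slide as a block, 6041 mRNA probes were higher and 2380 lower, and 2195 lncRNA probes higher and 4685 lower. With the replicate number as a block, 5984 mRNA probes were higher and 2325 lower, and 2111 lncRNA probes higher and 4557 lower, with no change of a call among the named probes. The gap between the categories was 0.0207, the other way, when they were normalized separately, which sets it near 0 by construction, and between -2.01 and -0.88 in all other settings. Lower mRNA probes numbered 1448 with 75th percentile scaling, 413 without normalization and 254 with spike-in scaling. The last 2 settings gave 4696 and 5621 higher and 1399 and 973 lower lncRNA probes. Requiring signal on all 6 arrays left 686 lncRNA and 4044 mRNA probes higher, as probes bright in the high pool alone drop out by construction. Averaging the probes of a transcript gave 1262 higher and 2664 lower lncRNA transcripts of 5074 tested. Leaving out each array in turn gave 5825 to 6012 mRNA probes higher, 2233 to 2465 lower, 1973 to 2278 lncRNA probes higher and 4388 to 5066 lower, and a gap of -1.53 to -1.41. All 1130 recomputed values of the 52 named probes kept their sign and call, which their choice by extreme differences in these data made likely. Of 566 list medians taken relative to mRNA, 547 kept their sign, and the other 19 belong to 5 lists, among them other TOP mRNAs (-0.72 to 0.40 over the scalings) and the endothelial list (-0.79, and 0.06 without a filter). The fit without total RNA replicate 1 was chosen after seeing the data. Arrays give no copy numbers, and dim probes of the untranslated pool limit the positive differences.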
